A study of Mus musculus with 59 samples.

Results

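The presynaptic genes described here are 44 named genes of the synaptic vesicle and of the active zone, the patch of presynaptic membrane at which vesicles fuse. They were taken by name from a list of presynaptic genes, by a rule that used no measured value. The list was chosen with earlier results of these data known. All 44 were among the 18088 genes listed for the mouse prefrontal cortex, and all 44 passed the filter of a mean normalized count of at least 10, as did 16599 genes in all. By role they comprised 12 genes of the active zone scaffold and of vesicle priming, 10 of the SNARE fusion machinery, 5 calcium sensors, 7 vesicle membrane proteins, 2 vesicular glutamate transporters, 5 genes of the synapsin and Rab3 cycle, and 3 genes of vesicle endocytosis.

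Messenger RNA was sequenced from the prefrontal cortex of 59 mice of the C57BL/6J strain on postnatal day 25. They carried 1 copy of a Shank3 knock-in allele (KI HT, here HT) or were wild type (WT). In the deposited table the columns of all 59 libraries, WT included, carry the tag L68P, which the labels do not explain. The mice took in lithium, fluoxetine or vehicle through maternal milk for 3 weeks, on postnatal days 3 to 24. Shank3 encodes a scaffold of the excitatory postsynaptic density, lithium is a mood stabilizer, and fluoxetine blocks serotonin reuptake. There were 10 HT lithium, 10 HT fluoxetine, 10 HT vehicle, 9 WT lithium, 10 WT fluoxetine and 10 WT vehicle mice, with 5 females and 5 males in each arm except 4 females in WT lithium. The drug reached pups through the dam and the labels do not name litters, so the p-values count pups as independent. A knock-in leaves the gene in place, and Shank3 counts gave no check of the genotype labels: HT and WT vehicle mice differed by -0.03 on the log2 scale (limma adjusted p = 0.987).

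A presynaptic terminal releases transmitter when calcium enters at the active zone. Scaffold proteins such as Bassoon, Piccolo, RIM and ELKS hold calcium channels and vesicles together there, and Munc13 proteins prime docked vesicles. SNARE proteins of the vesicle and of the target membrane then zip together, complexins hold the half-assembled complex, and synaptotagmins trigger fusion when they bind calcium. Synapsins keep a reserve of vesicles near the site, and dynamin, amphiphysin and synaptojanin take part in retrieving the membrane afterwards. In the cortex most terminals are glutamatergic and fill their vesicles through Slc17a7, while inputs from the thalamus use more Slc17a6.

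Whole-series facts that touch these genes were as follows. Libraries held 22984556 to 35969254 reads, recovered from the normalized counts. All 9 markers fixed for cortical glutamatergic neurons were present, with sums of 37578 to 81321 normalized counts per library. Slc17a7 is among these markers and is also a member, so the sums are in large part a member's own counts. In WT fluoxetine female 4, the library with the lowest sum, Slc17a7 held 28646 of the 37578. Markers of the olfactory bulb, which borders the frontal cortex, differed widely between libraries. An index that averages 8 bulb markers, after scaling every marker to a mean of 1 over the 59 libraries, was over 2.5 in 9 libraries: 3 WT fluoxetine females, 2 HT vehicle males, 1 HT vehicle female, 1 HT lithium female, 1 HT fluoxetine male and 1 WT lithium female. HT lithium female 5 stood apart by 2.70% mitochondrial reads. Choroid plexus markers summed to 52452 in HT vehicle female 1, one of the 9 libraries with a high bulb index, and to at most 314 in any other library. The 8 markers of myelinating oligodendrocytes had median sums of 99886 in HT lithium, 132974 in HT fluoxetine and 143321 in HT vehicle mice, and of 134151 in WT lithium, 104929 in WT fluoxetine and 159462 in WT vehicle mice. Results are given with and without the 10 libraries (the 9 and HT lithium female 5) where they differ. In bulk tissue, fewer cells of a type and less RNA per cell cannot be told apart.

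Of the 12 members that passed in HT mice and the 6 that passed in WT mice on lithium, 5 passed in both genotypes: Bsn, Pclo, Unc13b, Sv2a and Syn3. Of all tested genes 6.42% passed in both, which is 31.6% of the genes called in HT mice and 50.2% of those called in WT mice. The promoters of 4 of them are shown because these are the members whose counts were higher on lithium in both genotypes. They were taken from RefSeq on GRCm38.p6, from 250 bases before to 50 bases after the annotated start, 5′ to 3′ on the gene's strand. Of the 44 genes, 36 matched an entry. Capitals mark matches, on either strand, to any of 6 motifs. The core of the nuclear respiratory factor motif was searched as CGCATGCG. The GC box was searched as GGGCGG. The cyclic AMP response element was searched as TGACGTCA. The E-box was CACGTG. For the CCAAT box the letters were those of its name, and for the TATA box they were TATAAA. No 2 matches overlapped in these windows. Bsn lies at chr9:108190334-108190633, minus strand, Pclo at chr5:14514668-14514967, plus strand, Unc13b at chr4:43058703-43059002, plus strand, and Sv2a at chr3:96180977-96181276, plus strand.
Bsn: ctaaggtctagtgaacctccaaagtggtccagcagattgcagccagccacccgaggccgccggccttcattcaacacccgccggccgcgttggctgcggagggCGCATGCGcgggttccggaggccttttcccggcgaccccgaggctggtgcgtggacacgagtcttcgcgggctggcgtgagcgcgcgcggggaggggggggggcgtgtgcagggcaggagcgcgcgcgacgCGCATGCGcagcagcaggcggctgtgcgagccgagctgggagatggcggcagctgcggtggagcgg
Pclo: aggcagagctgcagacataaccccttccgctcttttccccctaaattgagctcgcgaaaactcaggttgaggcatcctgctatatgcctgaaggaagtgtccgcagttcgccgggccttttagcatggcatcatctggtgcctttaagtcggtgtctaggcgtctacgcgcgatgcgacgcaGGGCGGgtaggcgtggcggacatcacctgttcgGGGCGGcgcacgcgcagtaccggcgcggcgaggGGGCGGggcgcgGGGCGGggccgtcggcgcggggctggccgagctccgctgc
Unc13b: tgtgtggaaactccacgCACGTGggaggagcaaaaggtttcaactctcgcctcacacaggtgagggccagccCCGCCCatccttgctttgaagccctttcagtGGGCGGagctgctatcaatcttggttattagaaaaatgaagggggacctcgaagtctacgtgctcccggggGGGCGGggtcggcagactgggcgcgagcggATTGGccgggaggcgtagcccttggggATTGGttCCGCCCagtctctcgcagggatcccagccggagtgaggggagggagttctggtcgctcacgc
Sv2a: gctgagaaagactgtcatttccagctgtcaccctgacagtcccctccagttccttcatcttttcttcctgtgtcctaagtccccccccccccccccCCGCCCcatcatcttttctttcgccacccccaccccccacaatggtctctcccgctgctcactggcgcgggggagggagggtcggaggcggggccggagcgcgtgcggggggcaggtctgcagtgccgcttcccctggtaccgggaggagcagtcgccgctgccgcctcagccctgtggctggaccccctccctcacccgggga

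The Bsn promoter held 2 matches to the nuclear respiratory factor core, a motif found in 1.87% of all 32851 promoters of the table and in 2 of the 36 members matched. The GC box was common: 35.7% of all promoters and 28 of the 36 members held it. It occurred 4 times in Pclo, 4 times in Unc13b, once in Sv2a and not in the Bsn window. Unc13b also held 1 E-box (7.15% of all promoters, 5 of the 36 members) and 2 CCAAT boxes (37.4% of all promoters, 13 of the 36 members). The cyclic AMP response element (1.79% of all promoters, 2 of the 36 members) and the TATA box (13.6% of all promoters, 1 of the 36 members) had no match in these 4 windows. A match is a description of the letters, not a binding site, and these 4 promoters shared no motif of the 6.

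Levels were compared between genes as normalized counts per kb of the longest annotated transcript, in WT vehicle mice (mean ± SD, n = 10). Snap25, a target-membrane SNARE, stood first at 29081 ± 3610 per kb, ahead of Slc17a7, the vesicular glutamate transporter of most cortical terminals, at 16539 ± 1796, the vesicle protein Syp (synaptophysin) at 16142 ± 1076, and Vamp2, the main vesicle SNARE, at 14619 ± 837. Slc17a7 and Syp lay within each other's spread, as did the calcium sensor Syt1 at 10085 ± 969 and the small GTPase Rab3a at 9874 ± 863. The active zone scaffolds were far less abundant per length: the highest of them was Rims1 at 1434 ± 170, followed by Unc13a at 1323 ± 118 and Ppfia3 at 1223 ± 121, which overlapped. Bsn stood at 943 ± 98.1 and Pclo at 437 ± 42.6 per kb.

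Families differed widely within themselves. Among the Munc13 priming factors, Unc13a exceeded Unc13b (146 ± 9.48 per kb) and Unc13c (84.7 ± 10.1 per kb). The synapsins ran in the order Syn1, Syn2 and Syn3, with Syn3 at 80.1 ± 6.92 per kb the lowest of the 44. Syt2, a fast calcium sensor known from fast-spiking interneurons, stood at 95.9 ± 20.7 per kb, and Cplx3, a complexin known from deep cortical layers and the retina, at 123 ± 44.6. Cplx3, Doc2b, Synpr and Syt2 were also the members with the widest relative spread between WT vehicle libraries, in that Cplx3 ran between 76.4 and 186 per kb and Synpr between 917 and 2144. The members as a group were long and abundant genes: their median longest transcript was 4347.5 bases, against 3064.5 for all tested genes, and their median mean normalized count was 10207, against 519.

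**Figure D1:**
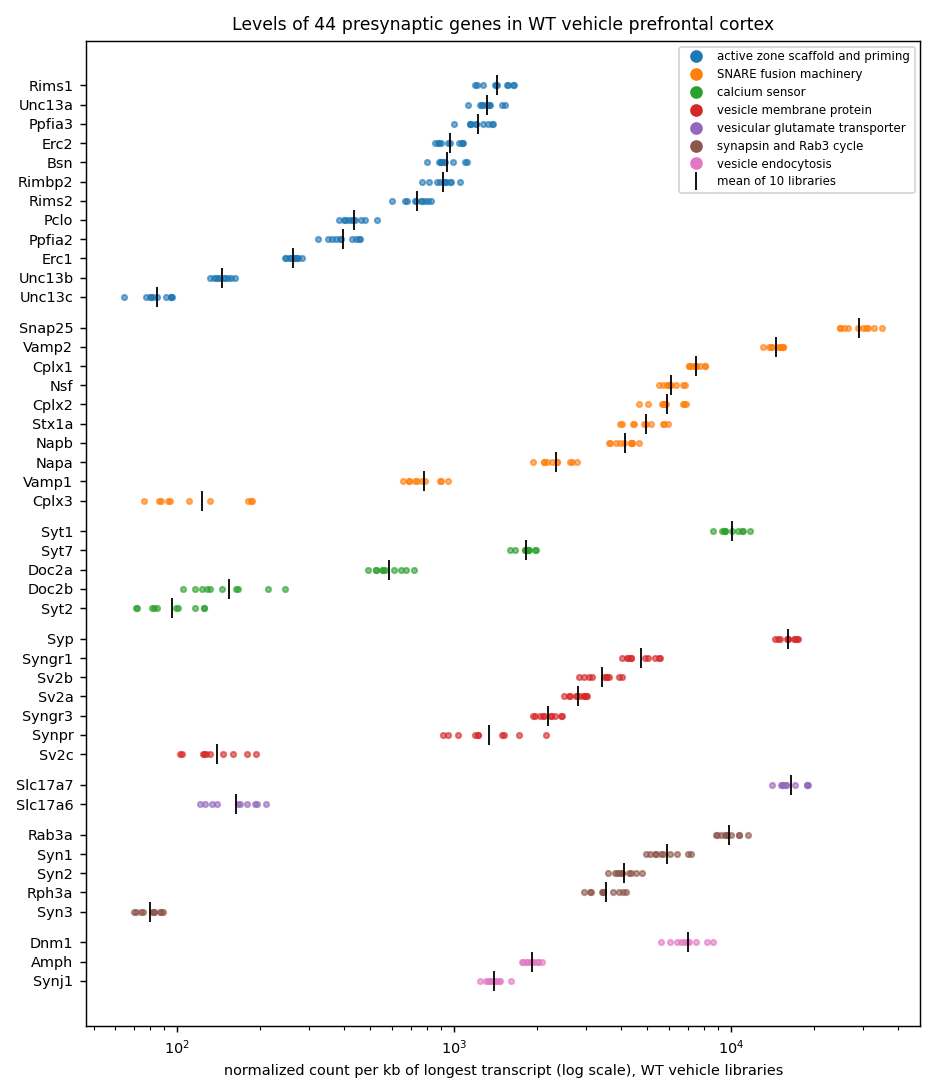
Normalized counts per kb of the longest transcript (log axis) for the 44 genes in the 10 WT vehicle libraries, grouped by role; points are libraries and bars are means. Snap25 lies at the top of the range, and Syn3, Unc13c and Syt2 at the bottom, with the active zone genes below the core SNARE genes Snap25 and Vamp2.

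In HT mice on lithium, 6 of the 12 active zone and priming genes had higher counts than under vehicle, Bsn, Pclo, Unc13a, Unc13b, Rimbp2 and Erc1, and none of the 12 was lower. Changes are log2 of the normalized count plus 1, lithium minus vehicle averaged over the sexes, ± the standard error of limma, and a gene passed at a limma adjusted p under 0.05 over all 16599 genes. Of the 44 members 11 were higher and 1 was lower, where 10.9% of all tested genes passed as higher and 9.43% as lower. By role, the other members higher were 1 of 10 SNARE genes, 2 of 5 calcium sensors, 1 of 7 vesicle membrane proteins, 1 of 5 synapsin and Rab3 genes, and none of the 2 glutamate transporters or 3 endocytosis genes. The median change of the 44 was 0.11, against 0.00 for all tested genes, and 29 of the 44 changes were above 0. No member separated the HT lithium from the HT vehicle libraries without overlap. The share of all tested genes that did so was not counted, nor was the share with most lithium libraries above the vehicle range. Oligodendrocyte markers moved with this comparison: their sum ran from 48980 to 161465 in HT lithium mice, against 71625 to 168482 in HT vehicle mice, and their part in the result was not tested. Without HT vehicle female 1, the library with choroid plexus markers, 9 members passed.

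Bsn encodes Bassoon, a giant scaffold of the active zone (chromosome 9, 108096022 to 108190384, minus strand). Its lowest, median and highest normalized counts were 17081, 21555 and 24872 in HT lithium mice, against 10838, 15590 and 19902 in HT vehicle mice. All 10 HT lithium libraries were above the HT vehicle median and 7 of 10 were above its highest library, and the change was 0.52 ± 0.09 (limma adjusted p = 6.25e-05), with 0.50 in females and 0.54 in males. Pclo encodes Piccolo, the partner scaffold of Bassoon (chromosome 5, 14514918 to 14863459, plus strand). Its counts were 8722, 10730 and 11857 in HT lithium mice (lowest, median and highest), against 6447, 8873 and 10994 in HT vehicle mice, a change of 0.28 ± 0.08 (limma adjusted p = 0.012). The HT lithium values lay mostly in the upper part of the HT vehicle range, and 4 of 10 exceeded it.

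Unc13a (Munc13-1), the main priming factor of cortical glutamatergic synapses (chromosome 8, 71624417 to 71671757, minus strand), had 14026, 16970 and 17941 normalized counts in HT lithium mice, against 10487, 13635 and 15042 in HT vehicle mice (lowest, median, highest). In 9 of 10 HT lithium libraries it was above every HT vehicle library, and the change was 0.34 ± 0.07 (limma adjusted p = 0.000358). Its paralog Unc13b (Munc13-2; chromosome 4, 43058953 to 43264871, plus strand) had 2233, 2625 and 2807 in HT lithium mice, against 1646, 2227 and 2470 in HT vehicle mice, again with 9 of 10 above the vehicle range and a change of 0.28 ± 0.06 (limma adjusted p = 0.00125). Unc13c, the Munc13 best known from the cerebellum, had 652, 791 and 1040 in HT lithium mice, against 573, 732 and 838 in HT vehicle mice, and its change of 0.20 ± 0.11 (limma adjusted p = 0.204) did not pass; the paralogs were not tested against each other.

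Rimbp2, a RIM-binding protein that links RIM to calcium channels (chromosome 5, 128757791 to 128953486, minus strand), had 6492, 7971 and 8648 in HT lithium mice, against 5324, 6732 and 7917 in HT vehicle mice, a change of 0.25 ± 0.08 (limma adjusted p = 0.02). Erc1, an ELKS scaffold (chromosome 6, 119570796 to 119848167, minus strand), had 2190, 2704 and 3105 in HT lithium mice, against 2040, 2292 and 2782 in HT vehicle mice, a change of 0.19 ± 0.06 (limma adjusted p = 0.0259). For both genes 9 of 10 HT lithium libraries were above the vehicle median. The call of Rimbp2 was lost without HT vehicle female 1 or male 4, and that of Erc1 without any of 6 libraries, 3 of them HT vehicle (female 1, male 4, male 5) and 3 HT lithium (female 1, female 5, male 2). The remaining active zone genes did not pass: Erc2, the other ELKS gene, had 5002, 6414 and 6824 in HT lithium mice, against 4910, 6336 and 6870 in HT vehicle mice, and the RIM genes Rims1 and Rims2, which bind Rab3 and calcium channels, changed by -0.03 and -0.13. The liprin scaffolds Ppfia2 and Ppfia3 changed by 0.00 and 0.21, neither past the threshold.

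Syt2 had the highest fold among the members in HT mice, 1.51-fold, on a low level. Its counts (chromosome 1, 134646677 to 134762593, plus strand) were 520, 866 and 1109 in HT lithium mice, against 343, 565 and 847 in HT vehicle mice, a change of 0.60 ± 0.19 (limma adjusted p = 0.0212). The 3 lowest HT vehicle libraries, at 343, 364 and 384, were those with a bulb index over 2.5, and the call was lost without any one of them. HT vehicle female 1, with the choroid plexus markers, is among these 3 and among the libraries on which the calls of Rimbp2 and Erc1 rested. Syt7, a slower calcium sensor with a part in asynchronous release and facilitation (chromosome 19, 10389090 to 10453180, plus strand), had 12312, 13815 and 15259 in HT lithium mice, against 10020, 12468 and 13548 in HT vehicle mice, a change of 0.20 ± 0.06 (limma adjusted p = 0.00696). Syt1, the abundant fast sensor of forebrain synapses, had 41274, 48806 and 51194 in HT lithium mice, against 40941, 49395 and 55968 in HT vehicle mice, a change of -0.05 ± 0.07 (limma adjusted p = 0.67) that did not pass. The Doc2 sensors of spontaneous and asynchronous release changed by 0.10 (Doc2a) and -0.12 (Doc2b), neither past the threshold.

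The SNARE genes themselves moved little. Stx1a, Snap25, Vamp1 and Vamp2, the membrane and vesicle SNAREs, changed by 0.13, -0.05, -0.12 and -0.02, and Nsf, the ATPase that takes SNARE complexes apart, by 0.08; none passed. Cplx1, a complexin that both clamps and promotes fusion (chromosome 5, 108518554 to 108550024, minus strand), had 14924, 17978 and 19286 in HT lithium mice, against 13180, 15602 and 16299 in HT vehicle mice, a change of 0.19 ± 0.05 (limma adjusted p = 0.00331). Cplx2 had 21786, 31901 and 33160 in HT lithium mice, against 19868, 29164 and 33443 in HT vehicle mice, and its change of 0.14 ± 0.11 (limma adjusted p = 0.402) did not pass, nor did the -0.14 of Cplx3. Napb, a brain adaptor of Nsf (beta-SNAP; chromosome 2, 148693985 to 148732467, minus strand), was the one member lower on lithium. It had 14391, 16496 and 18860 in HT lithium mice, against 15994, 18974 and 20084 in HT vehicle mice, a change of -0.18 ± 0.06 (limma adjusted p = 0.0181), with none of the 10 HT lithium libraries above the vehicle median. Its paralog Napa (alpha-SNAP) had 4978, 6054 and 6702 in HT lithium mice, against 4687, 6092 and 6998 in HT vehicle mice, a change of 0.02 ± 0.07 (limma adjusted p = 0.842).

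Sv2a, the vesicle glycoprotein that binds the antiepileptic drug levetiracetam (chromosome 3, 96181151 to 96195521, plus strand), was small in its change and even across libraries. It had 12628, 14345 and 15092 in HT lithium mice, against 10105, 12280 and 13241 in HT vehicle mice. In 9 of 10 HT lithium libraries it was above every vehicle library, and the change was 0.23 ± 0.04 (limma adjusted p = 9.93e-05), with 0.29 in females and 0.17 in males. Sv2b, the forebrain relative of Sv2a, had 14567, 20595 and 21571 in HT lithium mice, against 14341, 20381 and 22734 in HT vehicle mice, a change of 0.00 ± 0.11 (limma adjusted p = 0.997). Of the other vesicle membrane proteins, Syp and the synaptogyrins Syngr1 and Syngr3 changed by 0.13, 0.08 and 0.18, while Sv2c and Synpr (synaptoporin) changed by -0.16 and -0.48; none passed. The transporters Slc17a7 and Slc17a6 changed by 0.14 and -0.23 and did not pass either.

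Syn3, the synapsin expressed early in neuronal development (chromosome 10, 86055125 to 86498896, minus strand), had 344, 388 and 446 in HT lithium mice, against 257, 316 and 351 in HT vehicle mice. Again 9 of 10 lithium libraries exceeded the vehicle range, and the change was 0.35 ± 0.07 (limma adjusted p = 0.000374). Syn1, the major synapsin of mature terminals, had 16810, 20829 and 22740 in HT lithium mice, against 13673, 18532 and 21526 in HT vehicle mice, a change of 0.20 ± 0.10 (limma adjusted p = 0.151). Syn2, Rab3a and the Rab3 effector Rph3a (rabphilin) changed by 0.15, -0.02 and 0.26, and the endocytosis genes Dnm1 (dynamin), Amph (amphiphysin) and Synj1 (synaptojanin) by 0.25, 0.03 and 0.09. None of these 7 genes passed.

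**Figure D2:**
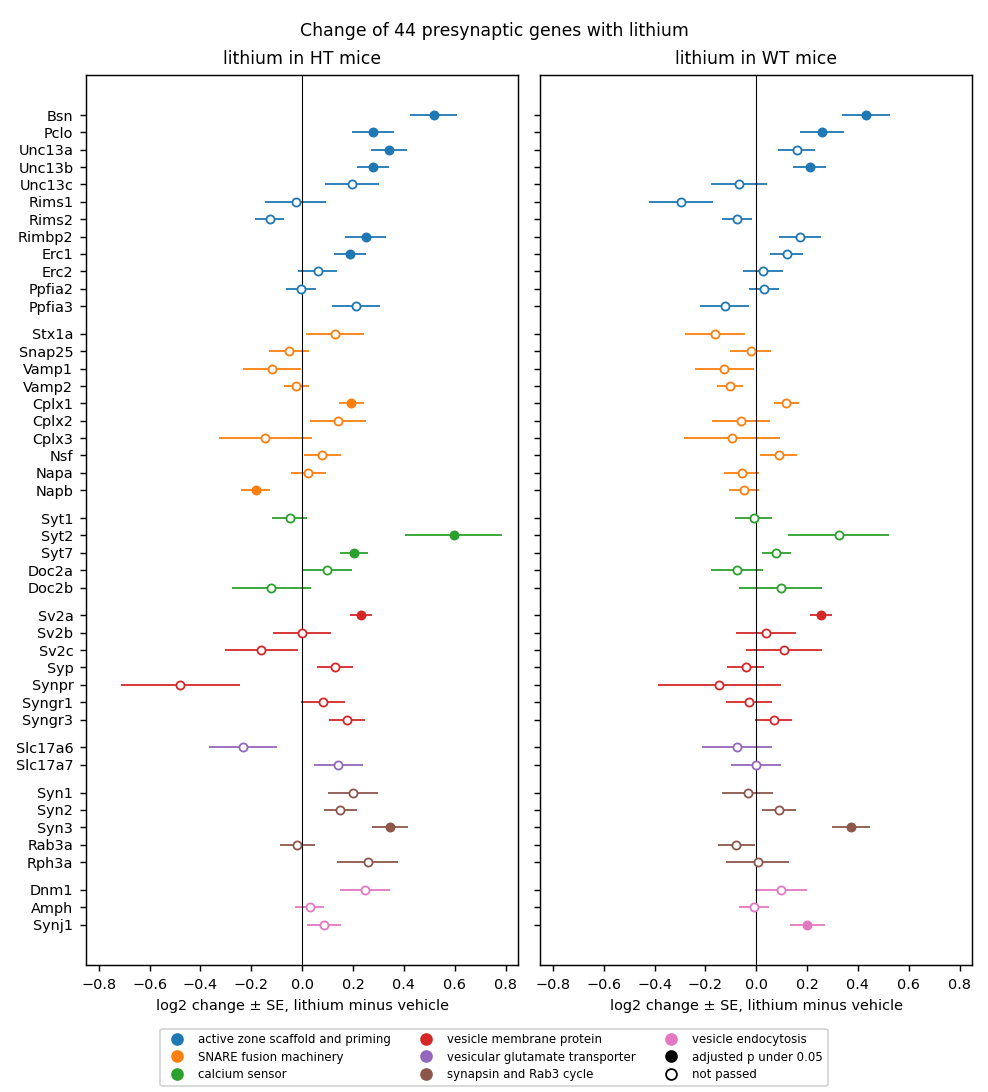
Log2 change ± SE of each of the 44 genes, lithium minus vehicle, in HT mice (left) and WT mice (right), grouped by role; filled points passed at a limma adjusted p under 0.05. Of the filled points, 6 of 12 in HT mice and 3 of 6 in WT mice are active zone and priming genes, with Bsn at 0.52 in HT and 0.43 in WT mice.

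In WT mice lithium was accompanied by higher counts of 6 members and lower counts of none. Among all tested genes 7.66% passed as higher and 5.11% as lower. The 6 were Bsn, Pclo and Unc13b of the 12 active zone genes, with Sv2a, Syn3 and Synj1. The lowest change among the 12 was that of Rims1, at -0.30, which did not pass. The median change of the 44 was 0.00, and 23 of them were above 0. Bsn had 17032, 20021 and 23345 normalized counts in WT lithium mice, against 12745, 14489 and 17832 in WT vehicle mice, with 8 of 9 lithium libraries above every vehicle library and a change of 0.43 ± 0.10 (limma adjusted p = 0.00148). Sv2a had 13042, 14835 and 15130 in WT lithium mice, against 10824, 12241 and 13119 in WT vehicle mice, also with 8 of 9 above the vehicle range, and changed by 0.25 ± 0.04 (limma adjusted p = 8.24e-05). For both genes all 9 lithium libraries lay above the vehicle median.

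Syn3 had 323, 420 and 501 in WT lithium mice, against 280, 327 and 357 in WT vehicle mice, a change of 0.37 ± 0.07 (limma adjusted p = 0.000384) with 0.36 in females and 0.39 in males. Unc13b had 1995, 2541 and 2864 in WT lithium mice, against 1937, 2144 and 2382 in WT vehicle mice, a change of 0.21 ± 0.07 (limma adjusted p = 0.0252). The lithium libraries of both genes reached above the vehicle range in 7 of 9 cases and overlapped it in the rest. Pclo had 9146, 10311 and 12212 in WT lithium mice, against 7711, 8596 and 10599 in WT vehicle mice, a change of 0.26 ± 0.09 (limma adjusted p = 0.0354). Synj1, a phosphoinositide phosphatase that helps to uncoat clathrin-coated vesicles (chromosome 16, 90936092 to 91011308, minus strand), had 9757, 11414 and 13037 in WT lithium mice, against 8832, 9796 and 11378 in WT vehicle mice, a change of 0.20 ± 0.07 (limma adjusted p = 0.0395). Of the 19 fits that each left out 1 library, the call was lost in 3 for Unc13b, 9 for Pclo and 10 for Synj1. That of Unc13b was lost without WT lithium female 2, female 4 or male 4.

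Beside the 5 members that passed in both genotypes, 7 passed in HT mice alone and 1 (Synj1) in WT mice alone. These threshold differences are not differences between genotypes. In the interaction of genotype with lithium 0 of 44 members passed in limma, edgeR and DESeq2, and 0.00602% of all tested genes passed. An unadjusted p under 0.05 was found for 1 member, against 12.2% of all tested genes. That member was Ppfia3, whose interaction of 0.34 ± 0.13 (limma adjusted p = 0.302) set a change of 0.21 in HT mice against -0.12 in WT mice. For Syt2, the interaction was 0.27 ± 0.27 (limma adjusted p = 0.73), with 588, 745 and 1124 normalized counts in WT lithium mice, against 489, 632 and 864 in WT vehicle mice. Unc13a changed by 0.16 ± 0.07 (limma adjusted p = 0.142) in WT mice and had an interaction of 0.18 ± 0.10 (limma adjusted p = 0.461).

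**Figure D3:**
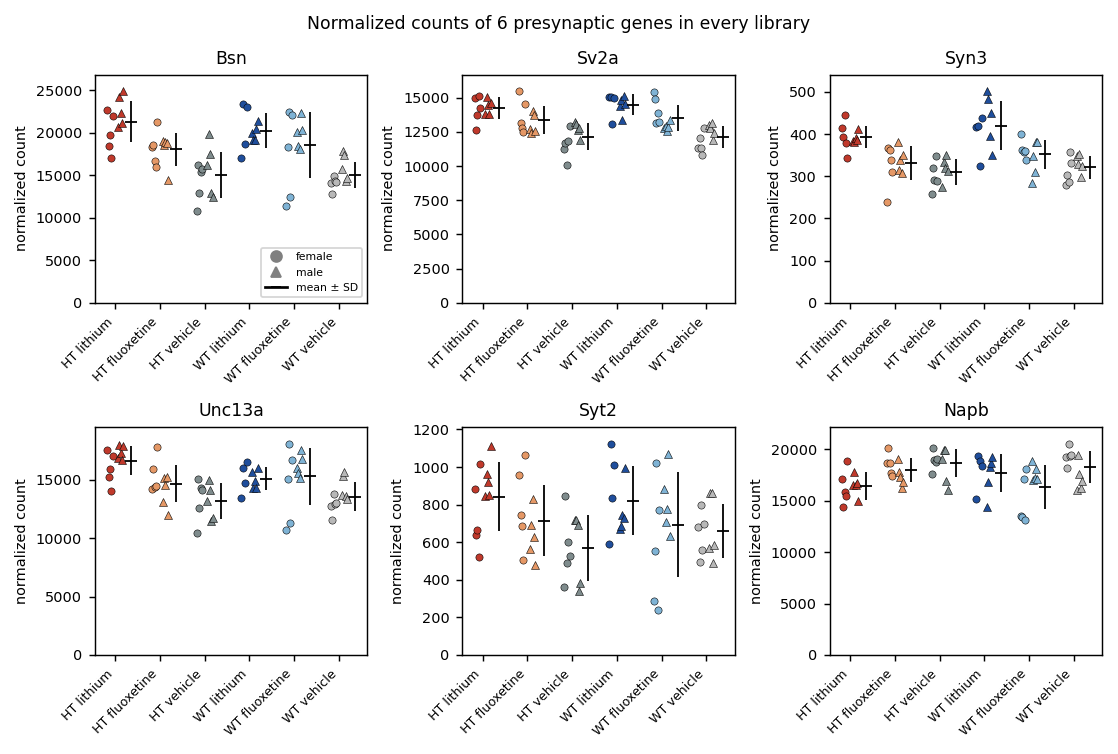
Normalized counts of Bsn, Sv2a, Syn3, Unc13a, Syt2 and Napb in every library of the 6 arms (circles females, triangles males; bars are mean ± SD, n = 10, or 9 in WT lithium). The HT lithium and WT lithium points of Bsn, Sv2a and Syn3 lie mostly above those of the vehicle arms, and the points of every arm overlap those of its vehicle arm.

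Transcript length moved with these changes, among all genes and among the members. Across the 44 members, Spearman's rho between the change and the longest transcript was 0.33 in HT mice and 0.51 in WT mice, against 0.12 and 0.34 across 16588 genes; genes are not independent replicates, and no test was made. Of the 8 members of at least 8 kb, 5 were higher on lithium in HT mice (62.5%), against 24.9% of the 899 tested genes of that length, and 3 in WT mice (37.5%), against 29.8%. All of these 8 but Sv2c are active zone and priming genes, so role and length go together among the members. With the length trend removed within each library, 7 members were higher in HT mice (background 9.96%), and in WT mice 2 were higher, Sv2a and Syn3 (background 3.98%). Pclo then changed by 0.17 in HT and 0.05 in WT mice, and Unc13b by 0.19 and 0.04, none past the threshold. Rimbp2, Erc1 and Syt7 also lost their calls in HT mice. Of the active zone and priming genes called in HT mice, only Bsn and Unc13a kept theirs. Bsn remained called in HT mice at 0.43 and was not called in WT mice at 0.25.

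GC content also moved with the change in HT mice, with a rho of 0.40 across members and 0.47 across all genes, and not in WT mice (-0.03 and 0.00). With the GC trend removed in HT mice, 7 members were higher (background 6.79%) and 0 lower (background 4.88%): Bsn, Pclo, Unc13a, Unc13b, Syt2, Sv2a and Syn3. Sv2a, of 4334 bases, and Syn3, of 4006 bases, are near the members' median length. In HT mice both passed under each of the 15 other settings and with any single library left out, as did Bsn. In WT mice Sv2a passed in all of these as well, and Syn3 in all but the fit to females alone. The part of length and GC content in the results was not otherwise tested.

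**Figure D4:**
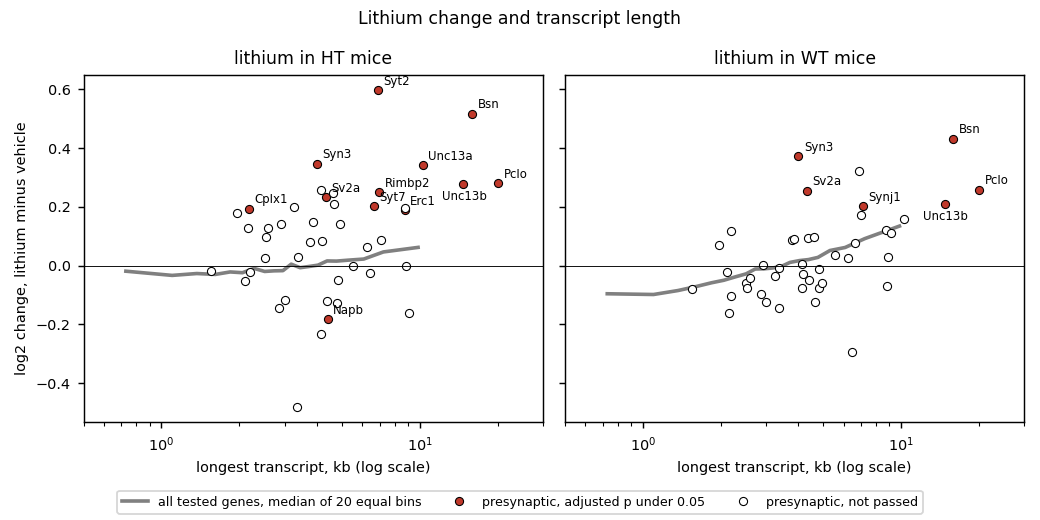
Log2 change with lithium against the longest transcript (kb, log axis) in HT mice (left) and WT mice (right); points are the 44 genes, filled where they passed, and the line is the median of all tested genes in 20 bins of equal size. The line rises with length, most in WT mice, and Bsn, Sv2a and Syn3 lie above it in both panels.

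Fluoxetine changed few members past the threshold. In HT mice 0 of 44 passed in limma, where 0.277% of all genes passed. An unadjusted p under 0.05 was found for 5, against 11.6% of all tested genes, and edgeR called 0 and DESeq2 called 1 (Sv2a). The changes nevertheless lay above 0 for 38 of the 44, against 49.6% of all tested genes, with a median of 0.09. They share the HT vehicle libraries with the lithium comparison, which included 3 of a bulb index over 2.5. The changes also moved with GC content, with a Spearman's rho of 0.55 across members and 0.30 across all genes. Between HT and WT vehicle mice these rho values were -0.41 and -0.42, and with fluoxetine in WT mice 0.08 and 0.15. The part of GC content in the changes above 0 was not tested. Sv2a had 12390, 12972 and 15461 in HT fluoxetine mice, against 10105, 12280 and 13241 in HT vehicle mice, a change of 0.14 ± 0.04 (limma adjusted p = 0.129), and Bsn had 14447, 18523 and 21323 in HT fluoxetine mice, against 10838, 15590 and 19902 in HT vehicle mice, a change of 0.28 ± 0.09 (limma adjusted p = 0.166). Neither passed. In all 10 HT fluoxetine libraries Sv2a was above the vehicle median.

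In WT mice on fluoxetine 1 member, Sv2a, was higher and 0 were lower, where 3.54% of all tested genes passed as higher and 2.11% as lower. Oligodendrocyte markers summed to 54538 to 175287 in WT fluoxetine mice, against 87310 to 257110 in WT vehicle mice; their part in the result was not tested. Sv2a had 12576, 13172 and 15386 in WT fluoxetine mice, against 10824, 12241 and 13119 in WT vehicle mice, a change of 0.15 ± 0.04 (limma adjusted p = 0.0267) with 0.28 in females and 0.03 in males. The highest fluoxetine values, 15386, 14935 and 13908, were those of females 1, 2 and 4, with bulb indices of 3.86, 2.70 and 4.39. Females 3 and 5 had 13152 and 13193, within the male range of 12576 to 13380 and above the highest WT vehicle female at 12765. The part of the bulb index in this difference between the sexes was not tested. The call of Sv2a was lost without WT fluoxetine female 2 or without any of 3 WT vehicle libraries (female 3, female 4, male 4). Bsn had 11431, 19242 and 22396 in WT fluoxetine mice, against 12745, 14489 and 17832 in WT vehicle mice, a change of 0.28 ± 0.09 (limma adjusted p = 0.0586) that did not pass. Its values split: 8 of the 10 fluoxetine libraries were above every vehicle library, and 2, females 1 and 4 at 11431 and 12460, were below every vehicle library. Those 2 had the highest bulb indices of all 59 libraries.

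The arms not yet given for these members follow, as lowest, median and highest normalized counts. Pclo had 9070, 10263 and 11890 in HT fluoxetine and 6177, 11150 and 12544 in WT fluoxetine mice. Unc13a had 11956, 14506 and 17841 in HT fluoxetine, 13413, 14927 and 16536 in WT lithium, 10728, 15796 and 18090 in WT fluoxetine and 11554, 13470 and 15672 in WT vehicle mice. Unc13b had 2051, 2238 and 2536 in HT fluoxetine and 1714, 2433 and 2698 in WT fluoxetine mice. The lowest WT fluoxetine library was female 1 for all 3 genes, and neither fluoxetine comparison of the 3 passed. Unc13c had 452, 741 and 1152 in HT fluoxetine, 547, 709 and 818 in WT lithium, 519, 749 and 992 in WT fluoxetine and 567, 733 and 847 in WT vehicle mice. Rimbp2 had 6226, 7512 and 8562 in HT fluoxetine, 6077, 6956 and 8245 in WT lithium, 4742, 7445 and 8832 in WT fluoxetine and 5365, 6451 and 7339 in WT vehicle mice. Erc1 had 2167, 2544 and 2745 in HT fluoxetine, 2175, 2490 and 2795 in WT lithium, 1968, 2500 and 2833 in WT fluoxetine and 2147, 2320 and 2485 in WT vehicle mice. Erc1 and Rimbp2, higher on lithium in HT mice, changed by 0.12 and 0.17 on lithium in WT mice, neither past the threshold. Erc2 had 5223, 6261 and 6897 in HT fluoxetine, 5227, 6256 and 7152 in WT lithium, 3622, 5888 and 6783 in WT fluoxetine and 5339, 5991 and 6707 in WT vehicle mice. Cplx1 had 14146, 15349 and 16953 in HT fluoxetine, 15965, 17987 and 19878 in WT lithium, 14284, 15940 and 18790 in WT fluoxetine and 15462, 16318 and 17713 in WT vehicle mice. Cplx2 had 22268, 30399 and 33233 in HT fluoxetine, 22557, 28811 and 33434 in WT lithium, 15217, 30120 and 35369 in WT fluoxetine and 22879, 28498 and 33862 in WT vehicle mice. Cplx1 changed by 0.12 ± 0.05 (limma adjusted p = 0.115) on lithium in WT mice, and the lowest WT fluoxetine library of Erc2 and Cplx2 was female 4, with the highest bulb index of the series.

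Among the SNAP adaptors, Napa had 5166, 6248 and 6486 in HT fluoxetine, 5140, 5535 and 6421 in WT lithium, 4796, 5865 and 6916 in WT fluoxetine and 4865, 5808 and 6984 in WT vehicle mice. Napb had 16206, 17767 and 20069 in HT fluoxetine, 14350, 18399 and 19386 in WT lithium, 13074, 17081 and 18897 in WT fluoxetine and 16063, 18680 and 20532 in WT vehicle mice. Napb was not called lower outside HT lithium when the sexes were averaged, with -0.05 ± 0.06 (limma adjusted p = 0.657) on lithium and -0.17 ± 0.06 (limma adjusted p = 0.0657) on fluoxetine in WT mice. Syt1 had 44152, 52251 and 56912 in HT fluoxetine, 41225, 48070 and 55890 in WT lithium, 36803, 50014 and 57957 in WT fluoxetine and 41711, 47316 and 56553 in WT vehicle mice. Syt2 had 479, 690 and 1062 in HT fluoxetine and 237, 739 and 1071 in WT fluoxetine mice. Syt7 had 10877, 12761 and 13986 in HT fluoxetine, 11686, 12805 and 13810 in WT lithium, 10352, 13220 and 15152 in WT fluoxetine and 10531, 12159 and 13115 in WT vehicle mice. All 3 synaptotagmins had their lowest WT fluoxetine value in female 4, and the low Syt2 value of that library was under the range of the WT vehicle mice. Sv2b had 15462, 21078 and 23422 in HT fluoxetine, 14405, 20598 and 23084 in WT lithium, 8907, 20087 and 23737 in WT fluoxetine and 15587, 19460 and 22397 in WT vehicle mice. Syn1 had 15813, 20902 and 22355 in HT fluoxetine, 16466, 18319 and 22447 in WT lithium, 11230, 19890 and 25410 in WT fluoxetine and 16092, 18391 and 23339 in WT vehicle mice. Syn3 had 283, 358 and 400 in WT fluoxetine mice. Sv2b and Syn1 changed by -0.09 and 0.00 on fluoxetine in WT mice. Synj1 had 9412, 11142 and 12025 in HT lithium, 9958, 11087 and 12245 in HT fluoxetine, 7941, 11083 and 12791 in WT fluoxetine and 8358, 10372 and 12513 in HT vehicle mice. Synj1, called on lithium in WT mice, changed by 0.09 ± 0.07 (limma adjusted p = 0.384) on lithium in HT mice.

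Without the 10 libraries that stand apart, 17 members passed with fluoxetine in WT mice, 16 higher (background 8.85%) and 1 lower (background 6.18%), Synpr, at -0.51. Bsn then changed by 0.49, Pclo by 0.39, Rimbp2 by 0.35, Rph3a by 0.33 and Unc13a by 0.31, and Sv2a was not among the 17, at 0.10. This removed 3 WT fluoxetine libraries, all of them females, and no WT vehicle library. The median sum of bulb marker counts was nevertheless 2031 in WT fluoxetine mice, against 4896 in WT vehicle mice, the highest of the arms. Females 3 and 5, with bulb indices of 0.088 and 0.072, were then the only WT fluoxetine females in changes averaged over the sexes. With every library kept and the index as a linear covariate, a setting chosen after seeing the data, 9 members were higher (background 6.97%) and 2 lower (background 5.48%), the lower being Erc2 and Napb; Bsn changed by 0.32 and Sv2a by 0.15. With the log2 index as covariate 2 were higher (background 9.83%) and 7 lower (background 8.69%), so the split of the members called differed between the 2 ways of entering the index.

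The same settings moved the lithium counts less. Without the 10 libraries, 6 members were higher in HT mice (background 6.45%), namely Bsn, Pclo, Unc13a, Unc13b, Sv2a and Syn3, and Napb, Rims2 and Vamp1 were lower (background 5.83%). In WT mice 9 were then higher (background 10.7%) and Rims1 lower (background 7.99%). With the linear index, 16 members were higher (background 14.5%) and 5 lower (background 12.7%) in HT mice, and 8 higher (background 12%) and 3 lower (background 9.65%) in WT mice. Under these 3 ways of treating the bulb index, Bsn changed by 0.38 to 0.44 in HT mice and was called each time, and Sv2a and Syn3 changed by 0.20 to 0.24 and 0.35 to 0.38.

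Most members had lower counts in the libraries with a high bulb index, and a few had higher counts. None of the 8 markers of the index is a member. In the 9 libraries with an index over 2.5, against the other 50, the median normalized count of Synpr was 8046, against 3431 (a ratio of 2.34). The ratio of medians was 1.44 for Slc17a6 and 1.43 for Sv2c. The lowest ratios were those of Syt2 with 0.522, Cplx2 with 0.673, and Bsn, Rph3a and Sv2b with 0.690, 0.689 and 0.690. Among other members called higher on lithium in HT mice, Unc13a had 0.777, Pclo 0.788 and Rimbp2 0.816. Unc13b had 0.822, Syt7 0.841 and Erc1 0.844. Slc17a7 had 38938 in the 9 libraries, against 52768. Sv2a (1.06), Syn3 (1.04) and Cplx1 (0.997) differed little by this measure. Among WT fluoxetine mice alone, however, the libraries with an index over 2.5 held the highest Sv2a counts. Ppfia2 (1.11) and Doc2b (1.01) were the remaining members with a ratio above 1. The summed counts of the 8 bulb markers had a median of 814 in HT lithium (260 to 12403), 1759 in HT fluoxetine (387 to 10572) and 2925 in HT vehicle mice (316 to 12650). In WT mice the median was 3228 with lithium (639 to 10446), 2031 with fluoxetine (305 to 17530) and 4896 with vehicle (397 to 9455). No bulb marker was at 0 in every library of an arm.

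**Figure D5:**
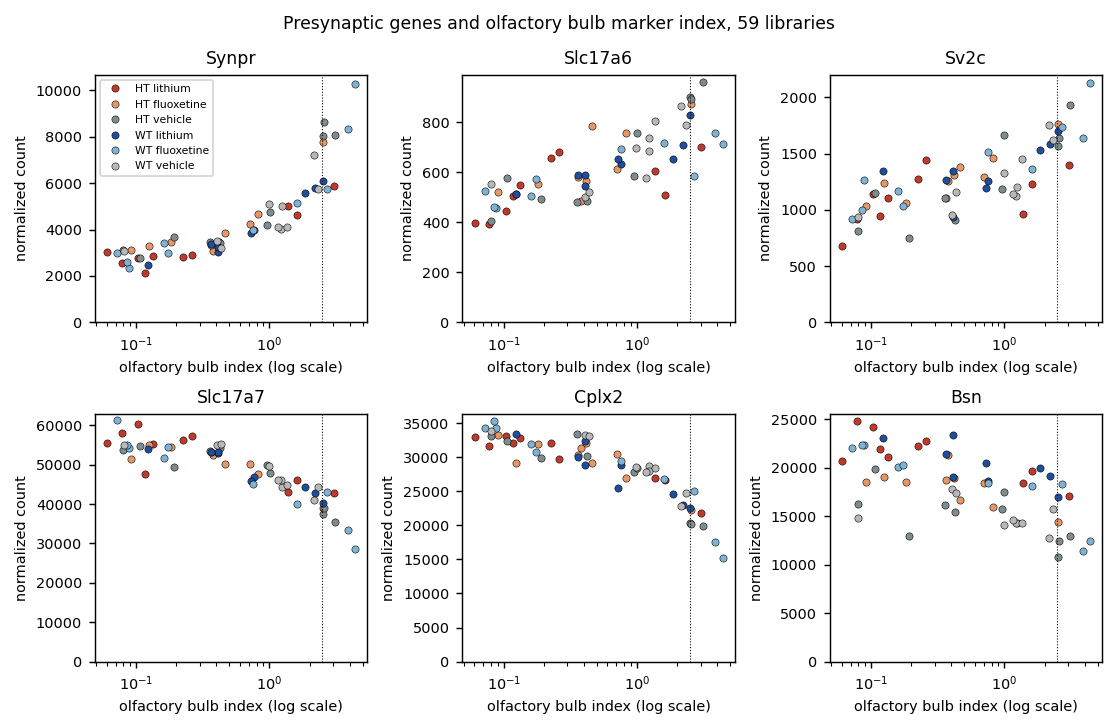
Normalized counts of 6 presynaptic genes in all 59 libraries against the olfactory bulb index (log axis), coloured by arm, with a dotted line at 2.5. Synpr, Slc17a6 and Sv2c are higher and Slc17a7, Cplx2 and Bsn lower in the libraries to the right of the line, as the medians of 8046 against 3431 for Synpr show.

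Lithium and fluoxetine were also compared directly, lithium minus fluoxetine. In HT mice 1 member was higher, Syn3 at 0.25 ± 0.07 (limma adjusted p = 0.0443), where 1.23% of all tested genes were higher. Its counts were 344, 388 and 446 in HT lithium mice, against 239, 339 and 382 in HT fluoxetine mice, and the call was lost in 14 of 20 fits that left out 1 library. Cplx1, at 0.16 ± 0.05 (limma adjusted p = 0.0589), came next. In WT mice 0 of 44 passed in limma, edgeR and DESeq2, where 0.199% of all tested genes passed. An unadjusted p under 0.05 was found for 5, against 10.4% of all tested genes. Syn3 stood at 0.24 ± 0.07 (limma adjusted p = 0.148).

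HT and WT mice did not differ past the threshold in any member. Under vehicle 0 of 44 passed in limma, edgeR and DESeq2, as did 0% of all tested genes in limma. An unadjusted p under 0.05 was found for 1 member, Cplx1 at -0.11 ± 0.05 (limma adjusted p = 0.743), against 6.47% of all tested genes. Cplx1 had 13180, 15602 and 16299 normalized counts in HT vehicle mice, against 15462, 16318 and 17713 in WT vehicle mice, with none of the 10 HT libraries above the WT median. Bsn had 10838, 15590 and 19902 in HT vehicle mice, against 12745, 14489 and 17832 in WT vehicle mice, a difference of -0.02 ± 0.09 (limma adjusted p = 0.995). Under lithium and under fluoxetine 0 of 44 passed as well (background 0% each), with 4 and 3 at an unadjusted p under 0.05 (11.1% and 11.3% of all tested genes). The interaction of genotype with fluoxetine gave 0 of 44 (background 0%), with 0 at an unadjusted p under 0.05 (5.08% of all tested genes). The 3 tools gave the same counts of 0.

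Of the interactions with sex, 1 member passed. Under fluoxetine in WT mice, Napb differed between the sexes by -0.41 ± 0.11 (limma adjusted p = 0.0207), where 5.08% of all tested genes passed as lower, with -0.38 in females and 0.04 in males. In females Napb had 13074 to 18054 in WT fluoxetine mice, against 18160 to 20532 in WT vehicle mice. In males it had 16972 to 18897 in WT fluoxetine mice, against 16063 to 19448 in WT vehicle mice. The 3 lowest females, at 13074, 13412 and 13547, were the 3 WT fluoxetine libraries with an index over 2.5. Without the 10 libraries that stand apart, which left only females 3 and 5 of the WT fluoxetine females, the call was lost. It was also lost without WT fluoxetine female 2, female 4 or male 1 alone. The interactions of sex with lithium in HT mice (background 0.012%), with lithium in WT mice (background 0%), with fluoxetine in HT mice (background 0%) and with genotype under vehicle (background 0.00602%) gave 0 of 44 in limma, edgeR and DESeq2. In the same order, 8, 0, 1 and 1 members had an unadjusted p under 0.05, against 17.1%, 8.84%, 5.31% and 10% of all tested genes.

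Other genes of the same machinery, from 5 lists chosen by role, were counted in the same way. On lithium in HT mice 12 of their 83 genes were higher and 5 lower, where 10.9% and 9.43% of all tested genes passed. Of 13 other active zone genes 4 were higher and 0 lower on lithium in HT mice, led by Rims4, a short RIM protein, at 0.33 (limma adjusted p = 6.86e-05), Apba1, the adaptor Mint1, at 0.26 (limma adjusted p = 0.00159), and Git1, a Piccolo-binding scaffold, at 0.36 (limma adjusted p = 0.0035). Among 19 other SNARE and calcium sensor genes 1 was higher and 2 lower, with Vamp4, an endosomal SNARE, at -0.22 (limma adjusted p = 0.00105), Napg (gamma-SNAP) at -0.16 (limma adjusted p = 0.0436), and the tomosyn gene Stxbp5l at 0.28 (limma adjusted p = 0.0458). For 15 other vesicle proteins the counts were 2 higher and 2 lower, with Rab5a, an early endosome GTPase, at -0.29 (limma adjusted p = 0.000181), Scamp1, a secretory carrier protein, at -0.22 (limma adjusted p = 0.000592), and beta-synuclein, Sncb, at 0.34 (limma adjusted p = 0.00395). Of 13 proton pump genes 1 was higher, the membrane subunit Atp6v0a1 at 0.24 (limma adjusted p = 0.0151). Of 23 other endocytosis genes 4 were higher and 1 lower, with the endophilin Sh3gl3 at -0.28 (limma adjusted p = 0.000239), the intersectin Itsn1 at 0.16 (limma adjusted p = 0.00243), and Bin1, an amphiphysin relative, at 0.14 (limma adjusted p = 0.00994).

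In WT mice on lithium the same lists gave 7 higher and 1 lower of 83, where 7.66% and 5.11% of all tested genes passed. They were 2 higher of 13 other active zone genes, 2 higher of 19 other SNARE and calcium sensor genes, 0 of 15 other vesicle proteins, 0 of 13 proton pump genes, and 3 higher and 1 lower of 23 other endocytosis genes. Rims4 was again higher, at 0.18 (limma adjusted p = 0.0373), as were Stxbp5l at 0.41 (limma adjusted p = 0.00547) and Itsn1 at 0.16 (limma adjusted p = 0.00451), and Sh3gl3 was lower at -0.27 (limma adjusted p = 0.000954). With fluoxetine in WT mice Sh3gl3 was also lower, at -0.33 (limma adjusted p = 0.00036), and Itsn1 higher, at 0.13 (limma adjusted p = 0.0432), in a comparison that shares the WT vehicle libraries with that of lithium. Syt12, a synaptotagmin, was the remaining gene of the lists to pass there, where 3.54% of all tested genes passed as higher and 2.11% as lower, at 0.33 (limma adjusted p = 0.0176). With fluoxetine in HT mice 0 of the 83 genes of the 5 lists passed in limma. An unadjusted p under 0.05 was found for 8 of them, against 11.6% of all tested genes.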

How the data were processed

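Libraries came from a stranded mRNA kit, per the labels' protocols. Per the submitters' processing notes, the authors used Salmon 0.11.2 for quantification, DESeq2 1.19.11 and R 3.6.0, and the build GRCm38. Each deposited value is a signal, namely the reads of a gene after division by a size factor of the library (here called a normalized count). Dividing by the smallest step of each library gave whole reads for 100% of the values (within 0.001, largest deviation 3.6e-09).

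Symbols, coordinates and longest transcripts came from GENCODE on GRCm38, matched by gene ID for 18077 of 18088 genes. Log2 of the normalized count plus 1 was tested with limma 3.58.1 (R 4.3.3; trend, robust; 12 group means) in 16 comparisons, two-sided, with Benjamini-Hochberg adjustment over the 16599 genes of each. Nothing says that the mice of a group came from separate litters, so p-values measure only the spread between these mice. The procedure was tested on simulated data. The plan foresaw the quasi-likelihood test of edgeR for raw counts; because the deposited values are normalized, edgeR 4.0.16 and DESeq2 1.42.0 were run on the recovered reads as alternatives. Other alternatives were quantile normalization, pseudocounts of 0.5 and 5, dropping the low-count filter, fitting only the groups compared, a block for the replicate number, each sex alone, GC or length trends removed, the log2 bulb index as covariate, the 10 libraries that stand apart left out, and each library left out in turn. The linear bulb index was added after seeing the data. 0 columns were unused.

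The members and lists were chosen with earlier results of these data known. Values in every arm are given for 20 members, those that passed and 1 paralog of each where the list holds one; Cplx1, Syt7 and Erc1, beyond the first 8 by size, were added.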

Additional observations from a re-analysis of the deposited data

Results flagged for a closer look

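Single libraries far from the rest of their arm were looked for in the 20 members with values in every arm, in 120 arms in all, by the gap to the nearest library relative to the arm's range. Chance alone would give about 1 in 20, and 4 arms had such a library. Pclo in HT lithium female 4 was 8722 normalized counts, below the arm median of 10730 and the next lowest library at 10187; this library had a bulb index of 3.04. Syn3 in HT fluoxetine female 1 was 239, against a median of 339 and a next value of 308. Sv2b in HT fluoxetine male 5 was 15462, against a median of 21078 and a next value of 19635; its bulb index was 2.54. Unc13c in HT fluoxetine male 2 was 1152, above the median of 741 and the next value of 818.

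The effect of fluoxetine on Napb in WT mice differed between the sexes, by -0.41 on the log2 scale in limma's interaction, with -0.38 in females and 0.04 in males. The 3 lowest females were the WT fluoxetine libraries with a bulb index over 2.5.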

How the results depend on the processing

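For the 16 counts of members and each member's change in each comparison, 10297 of 10534 alternative values kept the direction and the side of the threshold, 127 passed only under the alternative, 106 no longer passed and 4 reversed. The reversed ones were, with fluoxetine in WT mice without the libraries that stand apart, Rims1 at 0.24, Sv2b at 0.21 and Syn1 at 0.24, and, for sex by fluoxetine in WT mice with the linear bulb index, Synpr at -0.49; the cause was not tested. Counts of members called that moved were as follows. For lithium in HT mice (12, with 20.3% of all tested genes called), females alone gave 3 (7.02% of all genes), males alone 19 (16.2%), the GC trend removed 7 (11.7%) and the linear bulb index 21 (27.2%). For lithium in WT mice the count was 6, with 12.8% of all genes called. Females and males alone gave 1 and 2 (3.34% and 2.97%), and single-sex fits rest on fewer samples. The length trend removed gave 2 (6.85%), and either bulb covariate gave 11 (20.5% with the log2 and 21.6% with the linear index). Leaving out the libraries that stand apart gave 10 (18.7%). For fluoxetine in HT mice (0) DESeq2 gave 1, where it called 198 of 16589 genes. For fluoxetine in WT mice the count was 1, with 5.66% of all genes called. Quantile normalization gave 3 (6.44%), only the groups compared 0 (2.55%), females alone 2 (7.76%) and the length trend removed 0 (3.24%). The log2 bulb index gave 9 (18.5%), the linear index 11 (12.4%) and leaving out the libraries that stand apart 17 (15%). In edgeR 2 passed (5.89%) and in DESeq2 3 (7.41%). Genotype by lithium (0) gave 1, Ppfia3, in males alone and with the linear index. Lithium against fluoxetine in HT mice (1, with 357 of 16599 genes called) gave 4 with quantile normalization, and 0 with only the groups compared and in each sex alone. It gave 7 and 8 with the log2 and linear index, 2 without the libraries that stand apart and 2 in DESeq2 (614 of 16589 genes). In WT mice (0) it gave 3, 2 and 2 with the log2 index, the linear index and without those libraries. Sex by fluoxetine in WT mice (1, with 1438 of 16599 genes called) gave 5 with quantile normalization, 0 with only the groups compared and 0 with the GC trend removed. It gave 5 and 7 with the log2 and linear index, 0 without the libraries that stand apart and 3 in DESeq2 (1928 of 16589 genes). For genotype by lithium, lithium against fluoxetine and sex by fluoxetine, the share of all genes under the other settings is not given here.

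Leaving out 1 library at a time gave 9 to 14 members for lithium in HT mice (9 without HT vehicle female 1), 3 to 6 for lithium in WT mice (3 without WT lithium female 2, female 4 or male 4), 0 to 4 for fluoxetine in WT mice (4 without WT fluoxetine female 1; 0 without WT fluoxetine female 2, WT vehicle female 3, female 4 or male 4), 0 to 2 for lithium against fluoxetine in HT mice, 0 to 8 for sex by fluoxetine in WT mice (8 without WT fluoxetine female 5) and 0 in all other comparisons. The genes called among all tested genes moved too. They ran from 2782 to 3578 for lithium in HT, 1562 to 2273 for lithium in WT and 477 to 1311 for fluoxetine in WT mice. For lithium against fluoxetine in HT mice they ran from 104 to 479, and for sex by fluoxetine in WT mice from 557 to 2849.

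Replicate numbers did not pair the mice: same-numbered mice of different groups correlated by -0.001 on average (range -0.49 to 0.57), and 8 of 59 libraries were closest to their own number. With the replicate number as a block 12, 6 and 1 members passed with lithium in HT, lithium in WT and fluoxetine in WT mice. Of all tested genes 20.4%, 12.8% and 5.71% passed in these fits. In sex by fluoxetine in WT mice 2 members instead of 1 passed, and the share of all genes is not given here.

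Over all tested genes, edgeR on the recovered reads called 3448 with lithium in HT mice (limma 3374), 2163 with lithium in WT mice (limma 2120), 75 with fluoxetine in HT mice (limma 46) and 978 with fluoxetine in WT mice (limma 939), and DESeq2 called 3705, 2390, 198 and 1229 for the same comparisons.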
